A study of Mus musculus with 3 samples.

Results

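CpG-dense open chromatin windows were those in which at least 24 of the 200 steps between neighbouring bases were a C followed by a G, a value of 12 CpG per 100 steps or more. They made up 3686 of 13500 open windows (27.3%), each 201 bp long. The assay was ATAC-seq, which tags open chromatin with sequencing adapters by a transposase, on cells from the apical part of first molars of C57BL/6 mice. The groups were 2 control libraries of genotype Arid1a fl/fl and 1 mutant library of genotype Gli1-CreER;Arid1a fl/fl, in which tamoxifen-activated Cre is expressed from Gli1. All mice carried the floxed Arid1a allele, the gene of a DNA-binding SWI/SNF remodeller subunit, and per the labels' protocols all received tamoxifen in corn oil (20 mg/ml) by intraperitoneal injection, 1.5 mg per 10 g body weight, at PN3.5. The molars were collected at PN7.5 and digested with collagenase, and the protocol gives 5000 cells from each group. Cre can act only in cells that express Gli1 and in their progeny, so other cells of the mutant molars keep the floxed allele. The labels do not say how many animals a library pooled. The windows are 1 list over the libraries, with no value per library. Mutant and control were therefore not compared, depth is unknown, and there is no error over replicates for any value. A Plagl1 motif site is a sequence match and not a measurement of binding.

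CpG islands are stretches of DNA in which the CpG dinucleotide has kept about the frequency that the base composition gives, while most of the vertebrate genome has lost CpG through deamination of methylated cytosine. They are mostly free of methylation, lie at the promoters of housekeeping genes and of many developmental regulators, and are bound by proteins with a CXXC zinc finger and by Polycomb complexes. Plagl1, also called Zac1, is a zinc finger transcription factor that restrains the cell cycle, is itself imprinted, and recognises a G-rich motif.

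The bases of a window show what the threshold selects. The first pair below has like GC content, within 2 percentage points of the median of the CpG-dense windows, with each CpG in capitals. It was chosen among the windows that lie whole within a promoter entry, 397 CpG-dense and 1146 others, less those left out for printing. Foxk2, a forkhead transcription factor, has the window with most CpG among these, 39 at 77.6% GC, at chr11:121259761-121259961 with its midpoint 126 bp upstream of the transcription start. Midn, which encodes a partner of the proteasome, has the one with fewest among these, 15 at 73.6% GC, at chr10:80148111-80148311. It lies inside the gene, 61 bp from an annotated start, and is not CpG-dense. The sequences are from RefSeq promoters of GRCm38.p6 and are given on the plus strand.
Foxk2: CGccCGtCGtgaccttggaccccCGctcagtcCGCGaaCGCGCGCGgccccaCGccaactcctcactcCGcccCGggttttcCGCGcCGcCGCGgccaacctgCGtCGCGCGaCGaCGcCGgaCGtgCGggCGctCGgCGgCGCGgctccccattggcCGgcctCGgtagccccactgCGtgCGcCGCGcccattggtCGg
Midn: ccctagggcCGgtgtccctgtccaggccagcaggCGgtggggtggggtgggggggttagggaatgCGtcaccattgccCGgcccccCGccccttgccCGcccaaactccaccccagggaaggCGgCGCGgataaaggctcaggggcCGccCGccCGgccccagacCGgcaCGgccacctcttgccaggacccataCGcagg
The Foxk2 window holds 2 Plagl1 motif sites, the better of score 5.92, and the Midn window 1 of score 5.63.

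The second pair shows CpG-dense windows with Plagl1 motif sites in capitals. Gpr153, an orphan G protein-coupled receptor gene, has 3 sites of scores 6.82, 6.01 and 6.27 in a window of 25 CpG at chr4:152273920-152274120, 92 bp upstream of the start. Ism2, which encodes a secreted protein of the isthmin family, has 1 site of score 7.15 in a window of 32 CpG at chr12:87299725-87299925, 120 bp upstream of the start. The score is the log-odds score of the motif search. The Ism2 site lies on the minus strand, so the motif reads in reverse complement there. They had the most sites and the highest score among the CpG-dense windows that lie whole within a promoter entry.
Gpr153: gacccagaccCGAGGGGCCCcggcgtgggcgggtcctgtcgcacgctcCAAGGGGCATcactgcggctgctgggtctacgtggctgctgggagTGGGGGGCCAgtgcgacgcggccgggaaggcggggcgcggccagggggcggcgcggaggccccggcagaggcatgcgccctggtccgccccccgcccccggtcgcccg
Ism2: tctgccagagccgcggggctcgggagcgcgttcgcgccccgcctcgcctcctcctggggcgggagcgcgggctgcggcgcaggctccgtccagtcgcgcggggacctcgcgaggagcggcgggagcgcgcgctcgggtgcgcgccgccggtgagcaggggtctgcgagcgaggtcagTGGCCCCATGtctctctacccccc
The Gpr153 sites all lie on the plus strand, and that of Ism2 spans chr12:87299902-87299911.

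The CpG-dense windows ran from 24 to 46 CpG, with a median of 28, and the other windows from 0 to 23 with a median of 14. Their GC content ran from 60.7% to 88.1% with a median of 75.6%, against 62.7% in the others. These values follow from the rule and are given as a description. The usual island criteria are at least 50% GC and an observed over expected CpG ratio of at least 0.6. With the ratio taken at its lowest, by assuming equal numbers of C and G, all 3686 windows met both, which the CpG threshold itself brings about at the GC contents seen and which is no check of the label. Of the 9814 others 6148 (62.6%) met both. The ratio was at least 1 in 1724 CpG-dense windows (46.8%) and in 471 of the others (4.80%). The islands of the genome are longer than a window, and their full length was not measured. Just inside the threshold, the 457 windows with 24 CpG had a median GC of 72.1%, a motif site in 34.4% and a gene end within 1 kb in 82.7%. Just outside it, the 521 windows with 23 CpG had 71.6%, 33.6% and 79.8%. The windows changed little across the threshold, which cuts a continuous range.

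**Figure D1:**
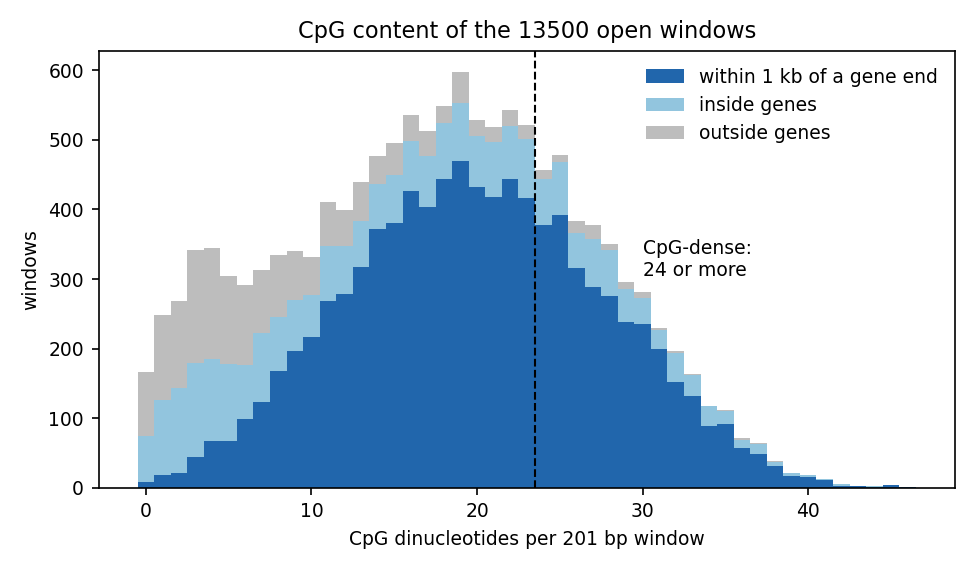
Number of open windows (vertical axis) by CpG dinucleotides per 201 bp window (horizontal axis), stacked by position relative to protein-coding genes. The dashed line marks the threshold of 24. The right side holds 3686 windows, of which 2976 lie within 1 kb of a gene end and 103 outside genes.

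The 10 windows with the most CpG lay at genes of varied function. Grsf1, an RNA-binding protein of mitochondrial RNA granules, came first with 46 CpG. Rnf130, a ubiquitin ligase, Spats2, the immunophilin Fkbp5 and Upf1, the helicase of nonsense-mediated decay, had 45 each. Ptp4a3, a protein phosphatase, and the kinase Slk had 44, and Ikzf2, a zinc finger factor of the Ikaros family, Ranbp9 and the proteasome adaptor Ecpas had 43. Of these windows 8 lay within 1 kb of a gene end. The windows of Fkbp5, Ptp4a3 and Ecpas each held 1 motif site, that of Ranbp9 held 2 and the others 0.

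Where the CpG-dense windows lay relative to genes was asked first, since the rule did not use position. They lay mostly at gene starts. Of 3686, 2976 (80.7%, exact 95% interval 79.4 to 82.0) had their midpoint within 1 kb of a protein-coding gene end, against 6102 of 9814 other windows (62.2%, 61.2 to 63.1) and 67.2% of all windows. Only 103 (2.79%) lay outside genes, against 1698 (17.3%), and 607 (16.5%) lay inside genes, against 2014 (20.5%). The odds ratio for a gene end was 2.55 (95% interval 2.204 to 2.95, adjusted p = 1.8e-35, logistic regression over all windows with errors grouped by chromosome). With 1 window per nearest gene it was 1.504 (1.304 to 1.736). With GC content in the model the odds ratio was 1.26 (1.08 to 1.47, adjusted p = 0.0077). At like GC it lost significance with 1 window per nearest gene (1.09, adjusted p = 0.481) and at a threshold of 28 CpG (1.12, adjusted p = 0.234).

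Gene ends could be split into starts and finishes where RefSeq promoters gave the strand. Of 2413 CpG-dense windows with such a gene, 2395 (99.3%) were nearer the start and 18 nearer the finish, and of 4945 others 4824 (97.6%) were nearer the start. The CpG-dense windows were shifted downstream, into the transcribed region. Their midpoint lay at a median of 71 bp downstream of the nearest start (quartiles -19.5 and 166), against 32 bp in the others (quartiles -66 and 124). It was at or downstream of the start in 70.4% of CpG-dense windows and in 58.4% of others. The odds ratio was 1.69 (95% interval 1.54 to 1.86, adjusted p = 1.6e-26 over 4 tests), and 1.15 with GC in the model (1.01 to 1.30, adjusted p = 0.0381). CpG-dense windows were less often shared by neighbouring genes: 352 of 2976 (11.8%) had at least 2 gene ends within 1 kb, against 1098 of 6102 (17.99%). The odds ratio of 0.611 (0.527 to 0.709, adjusted p = 1.5e-10) became 1.13 with GC in the model (0.900 to 1.43, adjusted p = 0.288). These comparisons of side and of shared ends were added after the data were seen.

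**Figure D2:**
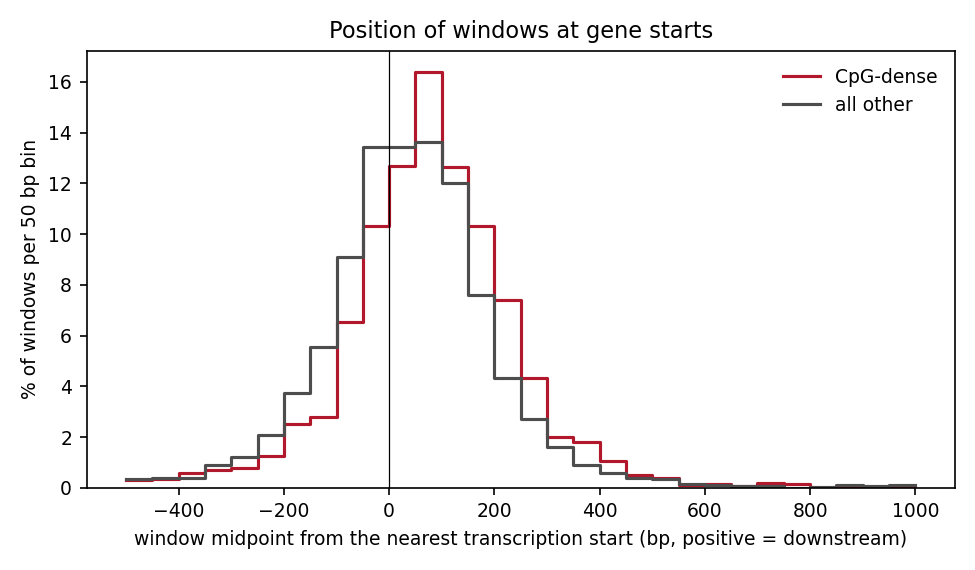
Distance of the window midpoint from the nearest transcription start in bp (horizontal axis, positive is downstream) for 2395 CpG-dense windows and 4824 other windows at gene starts, as the percent of each group per 50 bp bin (vertical axis). The line of the CpG-dense windows lies to the right, with medians of 71 and 32 bp.

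Many CpG-dense windows counted as inside or outside genes still lay at a start. Of the 684 that were over 1 kb from a protein-coding gene end and could be placed, 436 (63.7%) had a start of a RefSeq promoter within 1 kb, which includes internal starts and noncoding genes. Of 3585 such other windows, 1021 (28.5%) did. This difference was not tested. The window inside Arid1a is of that kind: at chromosome 4, 133754088 to 133754288, it holds 32 CpG at 81.1% GC, lies 2581 bp from the gene end but 203 bp from an annotated start, and has no motif site. The other windows inside Arid1a had 6 and 8 CpG. The window at the start of Plagl1, 6 bp from it, held 22 CpG and fell short of the threshold, and the window inside Gli1 held 10. The share of CpG-dense windows per autosome ran from 18.9% on chromosome 7 to 35.5% on chromosome 5, and was 12.7% on chromosome X (48 of 377).

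Whether Plagl1 motif sites were more or less frequent in CpG-dense windows was asked next. In plain shares the groups were close, and at like GC content the CpG-dense windows had fewer sites. The rule counts CpG in the same bases that the motif search reads, so no comparison of sites is independent of the rule. A site was found in 1218 of 3686 CpG-dense windows (33.0%, exact 95% interval 31.5 to 34.6), against 3226 of 9814 others (32.9%, 31.9 to 33.8) and 32.9% of all windows. The odds ratio was 1.01 (95% interval 0.942 to 1.08, adjusted p = 0.822). The number of sites was 42.2 per 100 CpG-dense windows and 42.8 per 100 others, a ratio of 0.987 (0.930 to 1.05, adjusted p = 0.765). These intervals bound the difference, and do not show that the groups are alike.

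The motif is rich in G and C, and the groups differ in GC by construction, so shares were also set side by side in bands of GC content. From 65 to 70% GC a site was found in 27.2% of 346 CpG-dense windows (22.5 to 32.2) and in 36.1% of 2330 others (34.1 to 38.0). From 70 to 75% the shares were 30.7% of 1223 (28.2 to 33.4) and 38.7% of 1338 (36.1 to 41.4), and from 75 to 80% they were 34.2% of 1426 (31.7 to 36.7) and 50.2% of 229 (43.6 to 56.9). The CpG-dense share was the lower in each of these 3 bands, and the intervals did not overlap. In a logistic regression with GC content the odds ratio was 0.625 (95% interval 0.559 to 0.699, adjusted p = 4.7e-16). For the number of sites the ratio was 0.666 (0.614 to 0.722, adjusted p = 1.8e-22, Poisson regression). Near gene ends alone the odds ratio at like GC was 0.610 (0.533 to 0.697). How far the rule itself sets the difference at like GC was not tested.

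**Figure D3:**
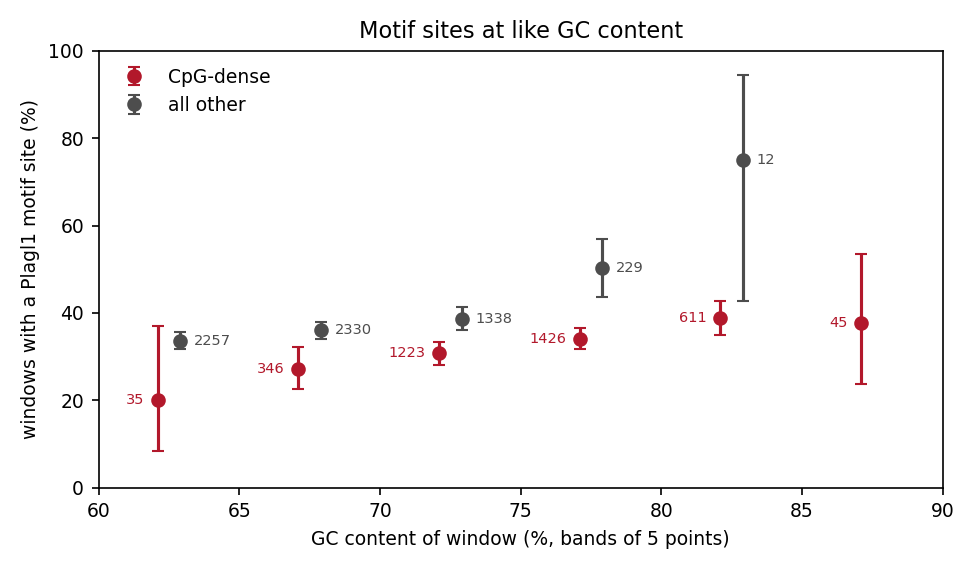
Share of windows with a Plagl1 motif site in percent (vertical axis) by GC content in bands of 5 percentage points (horizontal axis). Points are shares with exact 95% intervals and the number of windows beside them. The CpG-dense points lie below the others from 65 to 80% GC, for example 34.2% against 50.2% from 75 to 80%.

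Among the CpG-dense windows themselves the share with a site did not follow the CpG number closely. It was 34.2% of 935 windows with 24 or 25 CpG, 35% of 760 with 26 or 27, 31.8% of 928 with 28 to 30, 32.7% of 707 with 31 to 34 and 29.8% of 356 with 35 or more (exact 95% interval 25.1 to 34.8). These intervals overlap. Median GC rose along the same bands from 72.6% to 81.6%. By position the share was 32.9% of 2976 at gene ends, 32.0% of 607 inside genes and 42.7% of 103 outside genes (33.0 to 52.8), where the number of windows is small.

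Most CpG-dense windows with a site held a single one: 930 had 1, 245 had 2 and 43 had 3 or more. Of those with a site, 23.6% had more than 1, against 23.8% of the other windows. The most in a window was 4, against 7 in the others. Windows with 4 sites lay at Ino80d, a subunit of the INO80 chromatin remodeller, at Map2k4, a kinase of the stress-activated JNK pathway, at the ubiquitin-like modifier Sumo2, at the adenylyl cyclase Adcy3 and at Cspg4b. They also lay inside Rc3h2, an RNA-binding ubiquitin ligase, and outside genes with Zfp644 the nearest, 42090 bp away. At Sumo2 the window held 31 CpG, and its best site scored 6.73.

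Scores were slightly lower in CpG-dense windows. The best score per window averaged 6.05 ± 0.427 (SD over 1218 windows) against 6.10 ± 0.456 (SD over 3226 windows), with medians of 5.98 and 5.99. The difference of CpG-dense minus other windows was -0.0494 (95% interval -0.0838 to -0.0151, adjusted p = 0.0077, linear regression). With GC in the model it was -0.0478 (-0.102 to 0.00642, adjusted p = 0.112). It also missed the threshold near gene ends alone (-0.0321, adjusted p = 0.211) and with 1 window per nearest gene (-0.0420, adjusted p = 0.0616). The SD between windows within each group is far larger than the difference.

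Some CpG-dense windows nonetheless held high-scoring sites. Those of Ctdsp1, a phosphatase of the small CTD family, Shf, an adaptor protein, and Aplp1, a relative of the amyloid precursor protein, shared the highest score of 7.61. Next came Rcc1, the nucleotide exchange factor of the GTPase Ran, with 7.55, and Ccnq and Lpin2, a phosphatidate phosphatase, with 7.54 each. The window inside Nefh scored 7.48, and Wrnip1, Fam160b2 and the mitochondrial channel Vdac3 scored 7.36. The window of Lpin2 held 35 CpG, the most of these 10, and those of Nefh, Wrnip1 and Fam160b2 held 24, the fewest the rule admits.

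The bases of the sites follow in part from the rule, which counts the CpG of the same windows, and are given as a description with no test. Of 1556 sites in CpG-dense windows 954 (61.3%) held a CpG, against 1310 of 4197 (31.2%) in the others. The CpG stood mostly at the 5′ edge of the 10 bp site. It began at position 1 in 25.2% of sites in CpG-dense windows against 10.8%, and at position 3, just before the G run, in 22.04% against 8.77%. Toward the 3′ edge it began at position 9 in 12.8% against 7.62%. Position 5, where the motif takes G or A, held G in 65.4% of sites in CpG-dense windows and in 51.4% of others. Sites with a CpG scored lower than sites without in both groups, with medians of 5.90 and 6.03 in CpG-dense windows and of 5.85 and 5.99 in the others.

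**Figure D4:**
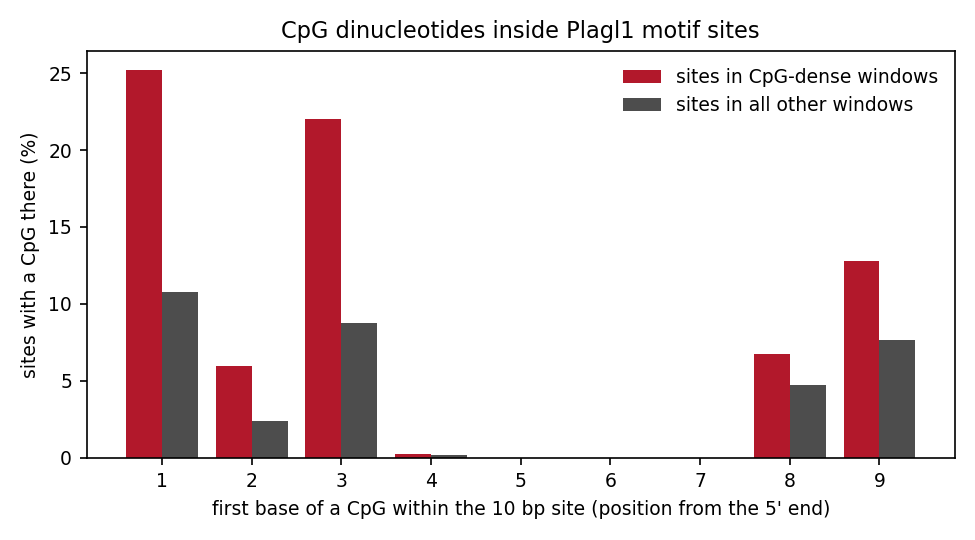
Percent of Plagl1 motif sites with a CpG (vertical axis) whose first base is at the given position of the 10 bp site, counted from its 5′ end (horizontal axis), for 1556 sites in CpG-dense and 4197 sites in other windows. Positions 1 and 3 stand out, with 25.2% and 22.04% against 10.8% and 8.77%.

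The 10 most frequent sequences accounted for 326 of the 1556 sites in CpG-dense windows (21.0%), and all 10 held a CpG. In the other windows the 10 most frequent accounted for 8.39%, and 4 of them held a CpG. The sequences below are the 3 most frequent in CpG-dense windows and the most frequent one without a CpG in the other windows, with positions 4 to 7 in capitals. They were chosen after their counts were seen.
Most frequent in CpG-dense windows, tied: cccGGGGccc
Most frequent in CpG-dense windows, tied: cgcGGGGccc
The next in CpG-dense windows: tccGGGGccc
Most frequent in other windows among those without a CpG: cctGGGGccc
The first had 68 sites in CpG-dense windows (4.37% of their sites) and 49 in the others (1.17%), at a score of 5.52. The second had 68 (4.37%) and 39 (0.929%), at 6.01, and tccGGGGccc 27 (1.74%) and 10 (0.238%), at 5.71. The last had 6 (0.386%) and 38 (0.905%), at 6.59.

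The genes at the CpG-dense windows were described next. Of 21887 protein-coding genes, 10205 had any window at an end, and for 3317 of these it was CpG-dense (32.5%). Of the 3317, 16 had 2 such windows and the rest 1. With windows also counted for genes whose body holds the midpoint, 75 genes held 2 CpG-dense windows and none held more. The first 10 of them in alphabetical order were Acaca, Agap1, Ano8, Anp32b, Asap1, Atn1, Atpif1, Atxn7, Baz2b and Brd1. A motif site lay in the CpG-dense window of 1088 genes (32.8%). The counts of gene lists below are read against these shares as a description, with no test. Gene lists can differ in GC content, which was not adjusted.

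Wnt signalling genes had CpG-dense windows in 16 of 20 genes with a window (80%), against 32.5% over all genes. The roles within the pathway differed. None of 10 Wnt ligand genes had any window at an end. All 10 Frizzled genes, the receptors, had one, and it was CpG-dense in 7: Fzd9 with 34 CpG, Fzd3 with 32, Fzd6 and Fzd8 with 27, Fzd1 with 26, and Fzd5 and Fzd10 with 25. Fzd2, Fzd4 and Fzd7 had 18, 17 and 21. The co-receptor Lrp6 had 34 CpG and 3 motif sites. Inside the cell, the Dishevelled adaptors Dvl1 and Dvl3 had 35 and 28, Ctnnb1, which encodes beta-catenin, had 35, and its destruction complex scaffold Apc had 27, while the kinase Gsk3b had 16. The Tcf factors that act with beta-catenin, Tcf7, Tcf7l1 and Tcf7l2, had 33, 26 and 24. A motif site lay in the CpG-dense windows of 7 of the 16 genes (43.8%), against 32.8% over all genes with such a window. This is a small count that was not tested.

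In BMP and TGF-beta signalling 11 of 24 genes (45.8%) had a CpG-dense window, against 32.5% over all genes. All 8 receptor genes with a window had a CpG-dense one: the type 2 receptor Acvr2a with 42 CpG, Bmpr1a with 32, Bmpr2 with 29, Acvr2b and Tgfbr3 with 26, Tgfbr1 with 25, and Acvr1 and Tgfbr2 with 24. Of the 8 Smad genes, which carry the signal to the nucleus, 2 did, Smad5 with 37 and Smad2 with 31, while Smad6 and Smad7, the inhibitory members, had 13 and 14. The Id genes, targets of BMP signalling, had 8, 11 and 14 for Id1, Id2 and Id3. The ligand Bmp2 had 24, and Tgfb3 had 6. Smad5 held 2 motif sites with a best score of 6.98, and Bmpr2 held a site of the same rounded score.

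Polycomb genes, which repress developmental genes at CpG islands, had CpG-dense windows in 14 of 23 cases (60.9%), against 32.5% over all genes. The methyltransferase Ezh2 had 38 CpG and its partner Eed had 29, while Ezh1 and Suz12 had 16 and 14. The ubiquitin ligase subunits Ring1 and Rnf2 had 30 and 25, the Phc subunits Phc1, Phc2 and Phc3 had 31, 31 and 26, and Rybp had 39. Bmi1 and Pcgf2 had 15 and 11, though the window counted for Pcgf2 lay 861 bp from its end and 139 bp from an end of Psmb3. SWI/SNF subunits had CpG-dense windows in 11 of 22 cases (50%), with Smarcc2 at 37 CpG, Bcl7a at 32, Smarcc1 and Dpf1 at 29, and the ATPase Smarca4 at 28. Its paralogue Smarca2, the Arid1a paralogue Arid1b, and Smarcb1 had 23 each, 1 below the threshold. Among genes that bind CpG or write or erase its methylation, 8 of 17 (47.1%) had one. Among them were the methyltransferase Dnmt3b with 36, the methyl-CpG binding proteins Mbd3 and Mbd2 with 32 and 29, the oxygenases Tet2 and Tet3 with 32 and 29, Cxxc4 with 26 and Uhrf1 with 25. Tet1, Cxxc1, Cxxc5 and Zbtb33 had 23.

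Among Hedgehog pathway genes with a window, 4 of 17 (23.5%) had a CpG-dense one, against 32.5% over all genes, a small count that was not tested. They were the co-receptors Cdon with 34 CpG and Gas1 with 29, and Disp1 and Scube2, which release the ligand, with 32 and 31. Of these Cdon, Disp1 and Scube2 held 1 motif site each, of scores 5.72, 5.54 and 6.37, and Gas1 held 0. The other members with a window lay below the threshold: the signal transducer Smo and the transcription factor Gli3 had 21 CpG, the Gli inhibitor Sufu 20, Gli2 18 and the co-receptor Boc 13. Cell cycle inhibitors had 5 of 18 (27.8%). They were the retinoblastoma protein Rb1 with 35 and its relative Rbl2 with 25, the repressive E2F factors E2f5 and E2f4 with 26 and 25, and the imprinted Cdk inhibitor Cdkn1c with 28 and 2 motif sites. Genes that drive the cycle had 7 of 30 (23.3%), with Foxm1 at 35, Ccne2 at 33, E2f1 at 31 and the proliferation marker Mki67 at 30. The window counted for Foxm1, 143 bp from its end, was nearer to an end of Rhno1, at 60 bp. The replication clamp Pcna and the topoisomerase Top2a had 11 and 9. Of 7 imprinted genes with a window 4 had a CpG-dense one (57.1%, against 32.5% over all genes), namely Grb10, Cdkn1c, Peg12 and Igf2r.

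Any window at an end was found for 13 of 28 odontoblast and osteogenic genes, beside 10205 of 21887 protein-coding genes, and for 7 of 20 dental mesenchyme genes. Of the 13, 3 had a CpG-dense window (23.1%), against 32.5% over all genes. They were the phosphatase Phospho1 and the transcription factor Klf4, with 29 CpG each, and Bmp2. The collagen genes Col1a1 and Col1a2 had 12 and 8 CpG and Sparc had 3. Of the 7 dental mesenchyme genes, 2 had a CpG-dense window, Lrig1 with 33 and Twist1 with 24, while Pdgfrb had 2. The numbers of genes with any window were small for other cell types. Dental epithelium and immune cell markers had 1 each, Ambn and Cd3d, both with 2 CpG, and endothelial markers had 3, none of them CpG-dense. Map2 of the neuronal list had 27 CpG and Notch3 of the pericyte list had 25. Since the markers of a cell type without a window give no value here, the cell types in the libraries cannot be read from these counts.

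Of the reference housekeeping genes, 4 of 13 (30.8%) had a CpG-dense window, among them Eef1a1 and Rplp0 with 25 CpG and Sdha with 24. Below the 32.5% of all genes were cytosolic ribosomal proteins with 13 of 76 (17.1%), mitochondrial ribosomal proteins with 13 of 69 (18.8%), proteasome genes with 6 of 44 (13.6%), complex I genes of the respiratory chain with 5 of 43 (11.6%), and RNA polymerase and Mediator subunits with 10 of 55 (18.2%). Translation initiation factors were near it, with 14 of 47 (29.8%), as were splicing and hnRNP factors with 20 of 61 (32.8%). Above it were ubiquitin-conjugating enzymes with 18 of 32 (56.2%), led by Ube2j1 with 39 CpG and Ube2e3 with 37, and protein phosphatase genes with 25 of 54 (46.3%), led by Ppp3cc with 40. The ubiquitin-specific proteases had 15 of 37 (40.5%).

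Transcription factor families went to both sides. Forkhead, Sox and T-box genes had CpG-dense windows in 14 of 29 cases (48.3%), with Foxk2 at 39 CpG, Foxk1 at 36 and Foxo1 at 33, while Sox9 had 11. Homeobox genes outside the Hox clusters had 5 of 27 (18.5%), among them Cux1 with 36, Satb1 with 34 and Cux2 with 31. None of 39 Hox genes had any window at an end. Zfp zinc finger genes had 56 of 271 (20.7%), with a median of 15 CpG in their richest window against 20 over all genes. Of the 56, 13 held a motif site (23.2%), against 32.8% over all genes with a CpG-dense window. Histone genes had 8 of 60 (13.3%). Those with the most CpG were the variants H2aj and H3f3a with 31 and H2az2 with 30, while H2bc18 and H3c13 of a histone cluster share a window with 1 CpG. None of 27 protocadherin genes with a window had a CpG-dense one. The median of their richest windows was 9 CpG, which is also the value of the window counted for Pcdhga1. A window counts for every gene with an end within 1 kb, so these need not be 27 separate windows. Several large families lay near the share over all genes: solute carriers with 59 of 178 (33.1%), led by the ion and phosphate transporters Slc12a2 and Slc20a2 with 40 CpG each, Tmem genes with 45 of 139 (32.4%), F-box genes with 17 of 49 (34.7%), Rab GTPase and partner genes with 20 of 55 (36.4%) and DEAD and DEAH box helicases with 13 of 44 (29.5%). Kinesins had 7 of 31 (22.6%), led by Kif2a with 39, cytokine, chemokine and interleukin receptor genes 5 of 19 (26.3%) and collagens 2 of 13 (15.4%). Receptors of smell gave almost no window: none of 1110 olfactory receptor genes had any at an end. Neither of the vomeronasal receptor genes with one, Vmn1r4 and Vmn2r29, had a CpG-dense one. The window counted for Vmn1r4, 66 bp from its end, was nearer to an end of Nt5c3, at 28 bp. The single keratin gene with a window, Krt10, had 30 CpG in a window 981 bp from a gene end and 3129 bp downstream of its nearest start.

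**Figure D5:**
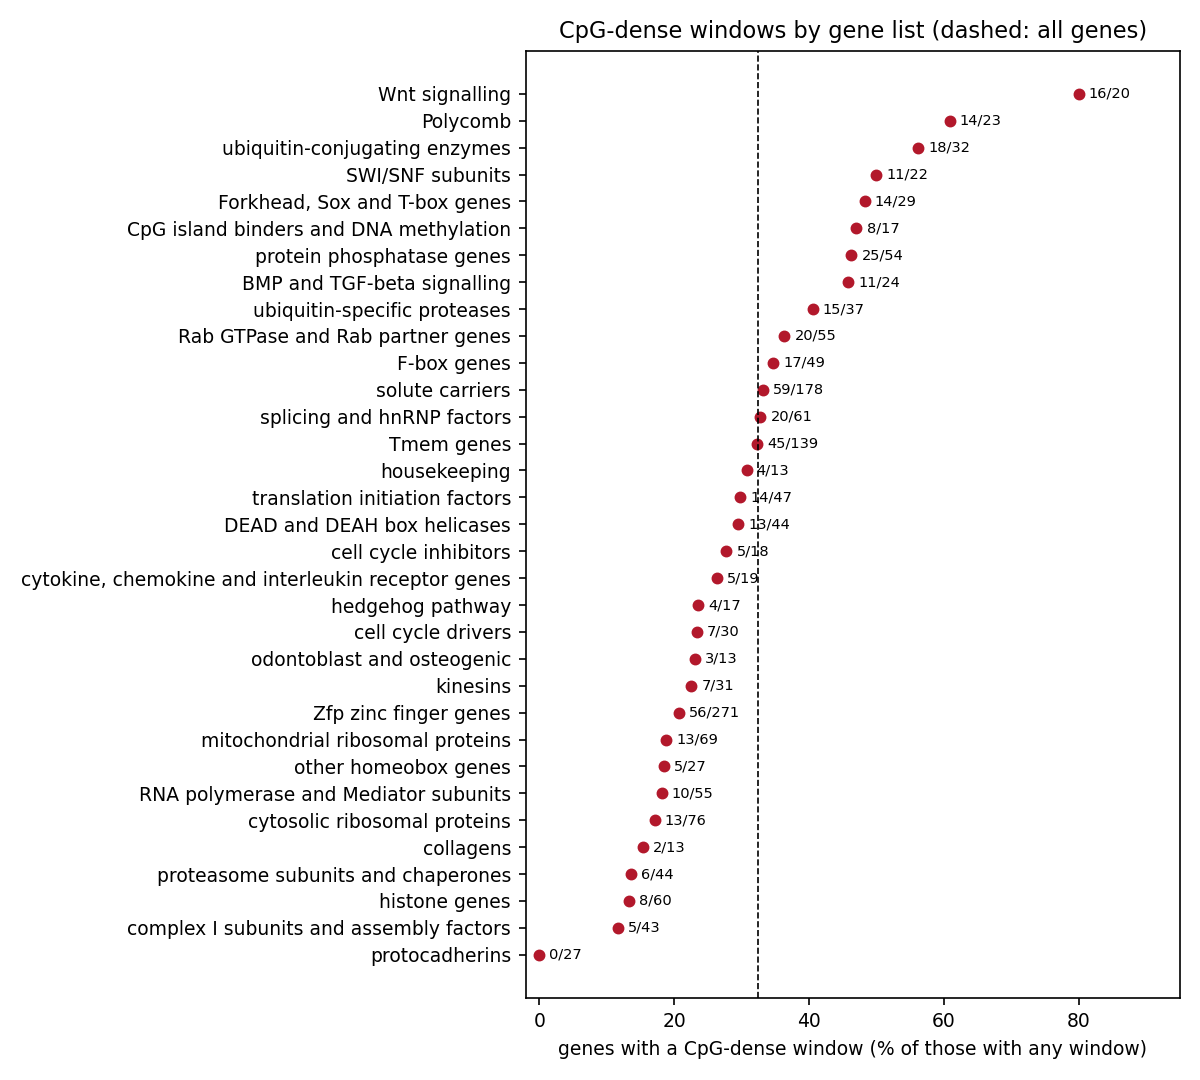
Percent of genes with a CpG-dense window among genes with any window within 1 kb of an end (horizontal axis), for the gene lists and families with at least 13 such genes (vertical axis), with counts beside each point. The dashed line is the share over all protein-coding genes, 32.5%. Wnt signalling lies highest with 16 of 20 and protocadherins lowest with 0 of 27. A window near the ends of several genes counts for each of them.

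Promoter sequences, from 250 bases before to 50 after the start, were searched for short motifs on both strands, as a description with no test. A match may share bases with a match of another motif. The GC box GGGCGG of Sp and Klf factors was found in 72.6% of 3406 promoters of protein-coding genes with a CpG-dense window. It was in 63.4% of 6778 promoters of protein-coding genes with other windows only, against 35.6% of all 32817 promoters. The last set also holds promoters of noncoding genes, so it is not a like baseline. The hexamer GGGGCC, part of the Plagl1 motif, was found in 45.4%, 33.8% and 24.97%. It leaves out motif sites with A at position 5, which were 34.6% of sites in CpG-dense windows and 48.6% in other windows. Shares of the hexamer are therefore not shares of Plagl1 motif sites. The pentamer CCAAT of NFY was found in 30.8%, 43.7% and 37.4%, so that promoters of the CpG-dense group were the lowest. The ETS core CCGGAA was at 26.9%, 30.8% and 14.9%, and the TATA box TATAAA at 6.19%, 6.71% and 13.6%. The motif of ZNF143 was at 1.996%, 5.92% and 1.81%. The AP-1 motif TGANTCA was at 3.88%, 4.10% and 7.81%, and the E-box CACGTG at 11.3%, 9.58% and 7.15%. Promoters of the CpG-dense group thus held the G-rich motifs more often than those of the other group, and CCAAT and the ZNF143 motif less often. The groups differ in base composition, and its part in these shares was not tested.

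In the 397 CpG-dense and 1146 other windows whose bases lie whole in a promoter entry, the search was repeated on the window alone. The GC box was in 84.9% against 62.3%, GGGGCC in 49.6% against 27.5%, CCAAT in 21.9% against 44.3%, and the ZNF143 motif in 1 window (0.252%) against 49 (4.28%). The GC box GGGCGG itself holds a CpG, which the rule counts in these same windows. GGGGCC is not the whole Plagl1 motif, and sites of the whole motif were in 33.0% of all CpG-dense and 32.9% of all other windows. Median GC of the 397 and 1146 windows was 75.6% against 62.7%. The part of the rule and of GC content in these shares was not tested. These windows also gave the true numbers of C and G. The observed over expected CpG ratio had a median of 1.03 in CpG-dense windows (quartiles 0.955 and 1.11) and 0.798 in the others. The rule selects on the CpG count in this ratio, so the difference follows from the rule and is given as a description. TpG and CpA, which deamination of methylated CpG leaves behind, numbered a median of 17 against 24 per window. From 70 to 75% GC they numbered 18 in 117 CpG-dense windows and 21 in 126 others. GpC, the same bases in the other order, numbered 30 and 26 there, so that in that band CpG-dense windows held more of both orders. Methylation was not measured, and the part of the rule in these counts was not tested.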

How the data were processed

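Open regions of 2 control and 1 mutant ATAC-seq library were analysed as 1 list. The submitters' processing notes name the build mm10 and, with no role or order, Bowtie2 2.3.5, MACS2 2.1.1, Picard, edgeR, bedtools, cutadapt 1.18 and FastQC 0.11.8, and HOMER annotated a union peak list over the 201 bp around each centre with 1 motif, per the file headers. The deposited CpG and GC values are fractions per window, per the file headers, and whole counts in 13499 and 13498 windows within 0.01. The deposited site score is HOMER's log-odds score, of unstated log base. The selection of the union list: not given in the sources used here. Peak scores were 0 throughout, so no filter on signal was possible.

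Genes (21887 protein-coding) and promoters came from RefSeq tables of GRCm38.p6, the assembly of mm10. Promoter entries matched 79.9% of protein-coding genes. In 397 CpG-dense and 1146 other windows whole within an entry, its bases gave the deposited CpG and GC values in every case. Positions count from 1. Windows on chromosome 18 were left out of the choice of windows to print. Windows were counted for a gene up to 1 kb from its ends, by midpoint.

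CpG-dense and other windows were compared by logistic, Poisson or linear regression over all 13500 windows, with two-sided Wald tests, standard errors grouped by 21 chromosomes, GC content as linear and squared terms where stated, and Benjamini-Hochberg adjustment over 8 tests at 0.05. Windows are not biological replicates. On simulated data the 95% intervals held the true value in 17 of 20 sets for site number at like GC and in 18 of 20 for scores. They may be slightly narrow. The simulated windows were drawn independently, so the grouping of errors by chromosome was not tested. Shares carry exact Clopper-Pearson intervals of counting error.

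The members, gene lists (44 lists and families) and tests were chosen with earlier results of these data known. Tests of the side of the start and of shared gene ends, and the roles within lists, were added after values were seen. Named genes were Plagl1, Arid1a and Gli1, the nearest genes of the 10 windows with most CpG, most sites and best score, up to 4 members per list with most CpG and up to 3 below the threshold with least, and the first 10 by alphabet of the genes with most CpG-dense windows. Members by role in the signalling, chromatin and cell cycle lists were named beyond that rule after their values were seen. Some list members are counted but not reported here by name. Alternatives were other CpG thresholds, distances, gene sets, standard errors, GC terms and subsets of windows. The analysis used Python 3.11.15, numpy 2.4.6, pandas 2.3.3, scipy 1.17.1, statsmodels 0.14.6 and matplotlib 3.10.9.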

Additional observations from a re-analysis of the deposited data

How the results depend on the processing

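Of 67 values recomputed under 11 settings, 54 counted as the same. The count of genes with a CpG-dense window has no test and was judged by its size, as the same in 3 settings and moved in 2. Every other value counted as the same if it kept its direction and its side of the threshold. The odds ratio of a site at like GC (0.586 to 0.640) and the ratio of site numbers at like GC (0.636 to 0.668) did so in all 8 settings run for each. The unadjusted odds ratio of a site, which did not pass the test, turned below 1 at a threshold of 28 CpG (0.939), with 1 window per nearest gene (0.985) and with sites at or above the median score (0.968), and the unadjusted number of sites turned above 1 at 20 CpG (1.00), each still within error of 1. The score difference lost significance with 1 window per nearest gene (-0.0420) and near gene ends only (-0.0321). At like GC it gained significance at 28 CpG (-0.0721), with ordinary errors (-0.0478) and with GC in bands (-0.0636). The unadjusted odds ratio for a gene end fell to 1.504 with 1 window per nearest gene. At like GC it lost significance at 28 CpG (1.12) and with 1 window per nearest gene (1.09). The number of genes with a CpG-dense window was 5259 at 20 CpG and 1785 at 28, since the threshold defines it. The cause of the other changes was not tested. The files hold no value per library, so no library could be left out. No paired analysis was possible because no column carries a sample. The depth behind a window is unknown.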
